A study of Mus musculus with 6 samples.

Results

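The comparison described here is that of liver RNA from CAR-knockout mice given diethylnitrosamine and phenobarbital with liver RNA from CAR-knockout mice given diethylnitrosamine alone. It was measured on 2 dye-swapped arrays of the 6 in the series, chosen by their sample titles. Diethylnitrosamine (DEN) is a carcinogen that starts liver tumours in mice, and phenobarbital (PB), given in the drinking water, promotes them. Both groups carried the CAR knockout and had the strain background C3H/HeNCrlBR(C3He), both received DEN, and both were sampled as liver at 39 weeks of age. They differed in PB. The labels give neither the number of animals behind each RNA nor how the knockout was made. On array 1 the DEN-PB RNA carried the red dye Cy5 and the DEN RNA the green dye Cy3, and on array 2 the dyes were exchanged. The other 4 arrays set wild-type (WT) liver, and WT tumour, each after DEN and PB, against the same class of RNA, that of CAR-knockout (CAR-KO) livers given DEN with PB. No liver of WT mice given DEN without PB was on the arrays analysed here, so the response to PB in the presence of CAR could not be computed.

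The constitutive androstane receptor CAR, encoded by Nr1i3, is a nuclear receptor of hepatocytes. PB activates it indirectly, and the receptor then moves to the nucleus and turns on genes of drug metabolism, with cytochromes P450 of the Cyp2b and Cyp2c families as the textbook targets. The pregnane X receptor PXR shares many ligands and targets with CAR, and its best known mouse target is Cyp3a11. Mice without CAR do not develop liver tumours under PB promotion in published work. The comparison within CAR-KO liver addresses what PB does to the liver transcriptome when its main receptor is missing.

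Values are log2 ratios of DEN-PB over DEN, normalized within each array by loess, so that 1 is a 2-fold higher level with PB. Each fitted value is the mean of both arrays after the ratio of array 2 was turned to the same direction, and is given with limma's standard error (SE), which draws on the spread of all 6 arrays. Of the 20868 probes, 20742 were tested, and 9647 carried a gene symbol. A gene with several probes is given by its brightest one. Median signals were 191 (Cy3) and 179 (Cy5) on array 1, and 209 and 129 on array 2, over a median local background of 54 to 62. All 10 hepatocyte markers measured, among them Apoa1, Ttr and Hnf4a, were well above background in both RNAs on both arrays.

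Array 2 stood apart from the other 5 arrays at bright probes. Among probes with a mean log2 intensity of 10 or more, 27.0% of 1086 differed at least 2-fold on array 2, against 0.828% of 1087 on array 1. On the WT liver and tumour arrays that share lay between 2.03% and 9.93%. The SD of the log2 ratios of these bright probes was 1.05 on array 2 and 0.229 on array 1. Among probes with a mean log2 intensity under 7, the SDs were 0.219 and 0.226. Turned to the same direction, the ratios of both arrays correlated at r = -0.35 over the probes measured on both, and at r = -0.31 once the dye effect of each probe, taken from the other 4 arrays, had been removed. The other dye-swapped pairs did not show this. Before turning, when a negative r means that swapped arrays match, the Cy5 over Cy3 ratios of bright probes correlated at r = -0.55 within the WT liver pair. The value was -0.83 within the tumour pair and 0.48 within the PB pair. All of these are correlations across probes of 2 arrays, and probes are not independent replicates. The dyes of both arrays are given by the labels, and that direction was kept. On array 2, 93 probes were at least 4-fold higher with PB, and 7 of these were above 0 on array 1. The fitted value of an abundant transcript therefore often came from array 2 alone, and most genes below are given with their values on both arrays. The cause of the difference between arrays was not tested.

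**Figure D1:**
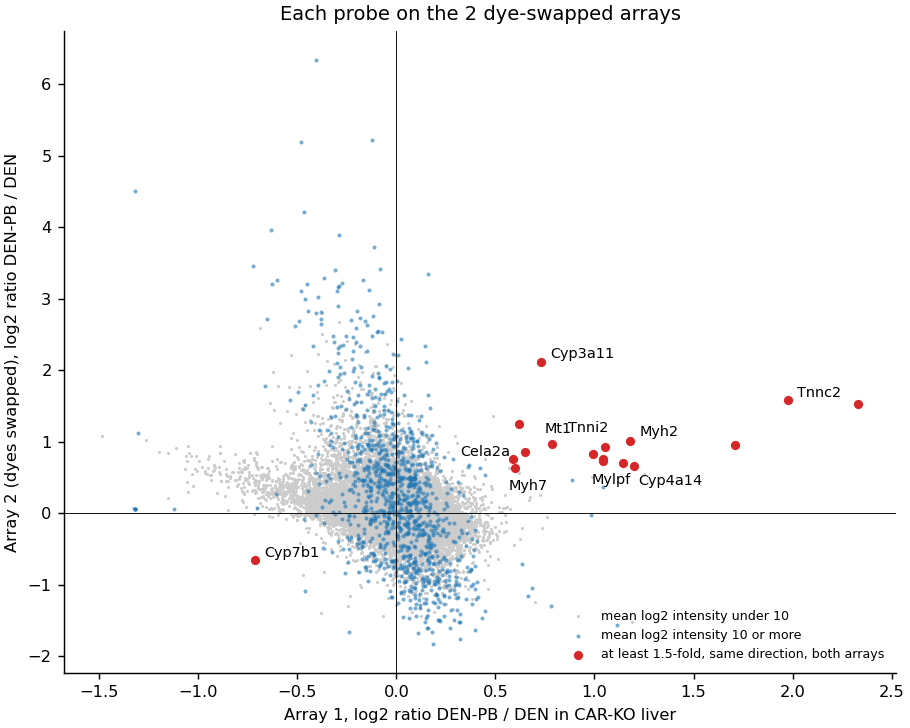
Log2 ratio of DEN-PB over DEN in CAR-KO liver on array 1 (horizontal axis) and array 2 (vertical axis), 1 point per tested probe. Probes with a mean log2 intensity of 10 or more are blue and spread mainly along array 2, while the 17 probes at least 1.5-fold in the same direction on both arrays are red, 16 of them higher with PB and 1, Cyp7b1, lower.

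**Figure D2:**
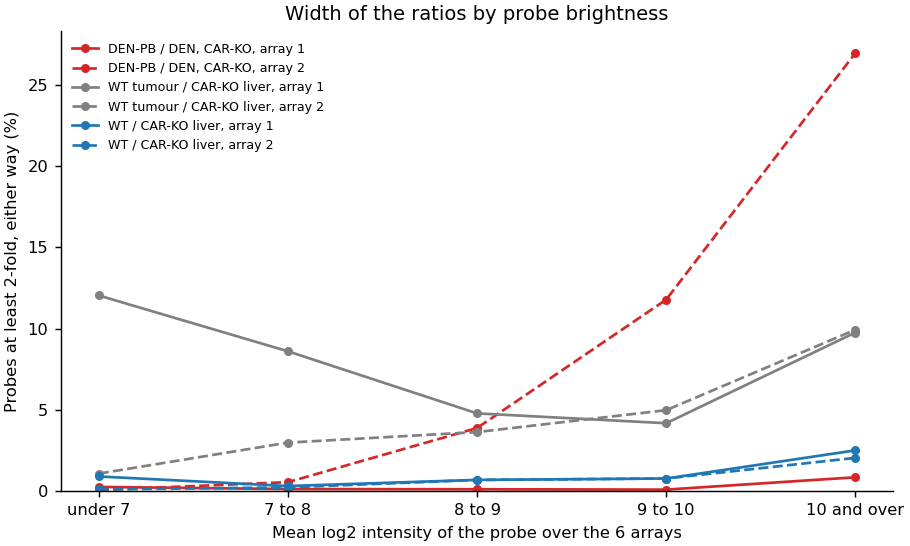
Percentage of probes at least 2-fold in either direction (vertical axis) by the mean log2 intensity of the probe over the 6 arrays (horizontal axis), 1 line per array. On array 2 of the PB comparison (red, dashed) the share reached 27.0% in the brightest class, against 0.828% on array 1 (red, solid).

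No probe passed the test for PB in CAR-KO liver. In limma's fit with Benjamini-Hochberg adjustment over 20742 probes, 0 probes were higher (0% of those tested) and 0 were lower (0%) at an adjusted p under 0.05. The lowest adjusted p, 0.0937, was that of Tnnc2. At an unadjusted p under 0.05, 458 probes were higher (2.21%) and 107 lower (0.516%), 565 in all (2.72%). That share is under the fraction of 0.05 that this cut-off would give if no probe differed. It rests on the spread of all 6 arrays, however, and the count was 1374 without the tumour pair and 1764 with median centring. The share by itself therefore does not settle whether there was a response. At least 1.5-fold on both arrays, 16 probes were higher (0.0771%) and 1 was lower (0.00482%). With the signals as processed by the Agilent software that split was 237 higher and 88 lower. Over all tested probes, 18.8% were positive on both arrays and 18% negative on both. When either tumour array was left out of the fit, 6 probes were higher at an adjusted p under 0.05. Among them were Tnnc2 (adjusted p = 0.000341), Cyp3a11 (0.0104), Myh2 (0.0170) and Tnni2 (0.0378). Without array 1 of the pair 3 probes were higher, and without array 2 the count was 0, with 27 probes at an unadjusted p under 0.05. None was lower in any of these fits. The labels do not say whether the arrays of a pair held separate RNA extracts, so these p-values may measure technical spread only.

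The 10 named genes in the set of 17 probes fell into a few recognisable kinds. Among them were 2 cytochromes P450 higher with PB (Cyp3a11 and Cyp4a14), metallothionein 1 (Mt1), 5 genes of the muscle contractile apparatus (Tnnc2, Myh2, Tnni2, Mylpf and Myh7), the pancreatic elastase Cela2a, and 1 cytochrome P450 lower with PB (Cyp7b1). The 7 probes without a symbol were described in the files as 5 more muscle transcripts, a sorbitol dehydrogenase (0.62 and 1.25 on arrays 1 and 2) and a transcript similar to glutathione S-transferase theta 1 (0.59 and 0.76).

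The genes that CAR and PB are known to control ran from -0.54 to 0.44 against DEN alone on array 1, on the log2 scale, when PB was given without CAR, and some of them were higher on array 2. Of the 31 genes on that list, 21 were measured, and 0 of them passed the test or were at least 1.5-fold higher on both arrays. Their median log2 ratio was 0.10, against 0.00021 over the 9462 genes tested, with medians of 0.024 on array 1 and 0.13 on array 2. Positive fitted values were found for 16 of the 21, against 50.1% of all genes and 47.7% of all probes, and 9 were positive on both arrays, against 20.3%. At an unadjusted p under 0.05, 5 of the 21 were higher, Ces2a, Ephx1, Gstt1, Por and Cyp2c39, by fitted ratios of 1.42-fold to 1.69-fold, against 2.21% of all probes. Of these 5, Gstt1 and Por were positive on both arrays, Gstt1 by 0.024 on array 1. In the WT over CAR-KO comparison, where both livers had received PB, 10 of the same 21 genes were higher at an adjusted p under 0.05 (0.0916% of all probes), with a list median of 1.77. Both comparisons used RNA labelled DEN-PB CAR-KO, and the labels do not say whether it was the same extract, so their values are set side by side and not correlated.

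Cyp2b10, the classical PB-inducible cytochrome P450 of mouse liver, had log2 ratios of -0.10 and 0.11 on arrays 1 and 2. The fitted value was 0.0072 ± 0.16 (SE), with a 95% interval whose upper bound is 1.31-fold. Both arrays thus lay on either side of 0, while WT over CAR-KO liver was 1.89 ± 0.16 for this gene (limma adjusted p = 0.00746). Cyp2b13, of the same family, was 0.04 and 0.16 with PB, and Cyp2b9 was 0.44 and 0.13. The 95% intervals of their fitted values reached 1.42-fold for Cyp2b13 and 1.68-fold for Cyp2b9. In WT over CAR-KO liver, Cyp2b9 was higher by 4.76 ± 0.20 and Cyp2b13 by 3.61 ± 0.18 on the log2 scale. Among the Cyp2c genes, Cyp2c37 was 0.02 and 0.13 with PB, Cyp2c55 was 0.13 and -0.015. Cyp2c38 was -0.14 and 0.13, with the DEN RNA well above background on 1 of 2 arrays, and its ratios of WT over CAR-KO liver were also near 0 (0.090 and -0.064). Cyp2c29 (0.0078 and 0.54) and Cyp2c39 (-0.014 and 1.03) were near 0 on array 1 and higher on array 2. Members of the Cyp2b and Cyp2c families have closely similar sequences, so a probe may read more than the gene it is named for.

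**Figure D3:**
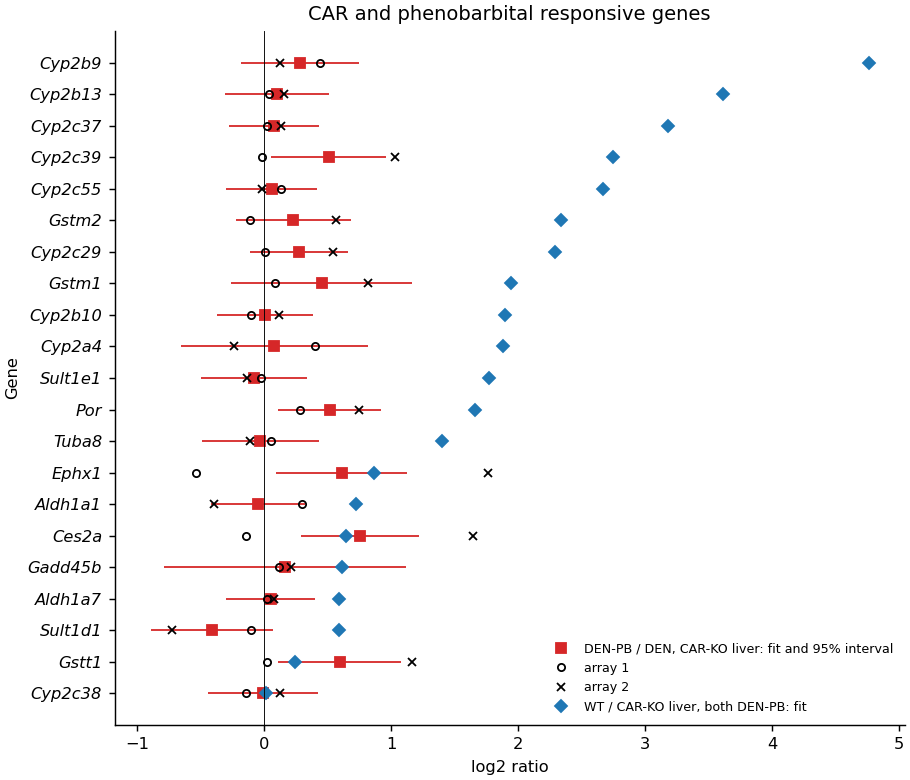
Log2 ratios (horizontal axis) of the 21 measured genes of the CAR and phenobarbital list (vertical axis). Red squares with 95% intervals are the fitted ratios of DEN-PB over DEN in CAR-KO liver, circles and crosses are arrays 1 and 2, and blue diamonds are WT over CAR-KO liver after DEN and PB. The red values lie between -0.41 and 0.75, while the blue ones reach 4.76.

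The difference between both ratios was tested in the same fit, as the WT over CAR-KO ratio minus the PB ratio in CAR-KO liver. It exceeded 0 at an adjusted p under 0.05 for 6 probes (0.0289%) and was below 0 for 2 (0.00964%), Tnnc2 and the perinatal myosin heavy chain probe described below, whose DEN signal was well above background on 1 of 2 arrays. The list held 4 of the 6. Cyp2b9 differed by 4.48 ± 0.28 (limma adjusted p = 0.0045), Cyp2b13 by 3.52 ± 0.25 (0.00471), Cyp2c37 by 3.11 ± 0.21 (0.00471) and Cyp2c55 by 2.61 ± 0.22 (0.0132). Cyp2b10 differed by 1.89 ± 0.23 and did not pass (adjusted p = 0.0791). The other 2 higher probes were Ly6d, a small membrane protein (3.69 ± 0.24), and the pancreatic lipase related Pnliprp1 (2.06 ± 0.22). Both ratios hold DEN-PB CAR-KO RNA, on opposite sides of the fraction, so a high level there lowers this difference. The call rests on single arrays. Without array 1 of the WT pair, or without either array of the PB pair, 0 probes differed in either direction, without array 2 of the WT pair 3 were above and 1 below, and without either tumour array the counts were 42 and 26.

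Among the enzymes that work with or after the P450s, some were higher on array 2 and not on array 1. Por, which passes electrons to all microsomal P450s, was positive on both arrays, with 0.28 and 0.75 and a fitted value of 0.52 ± 0.17. Its WT over CAR-KO value was 1.66 ± 0.17 (limma adjusted p = 0.022). Ephx1, microsomal epoxide hydrolase, was -0.54 on array 1 and 1.76 on array 2, and the carboxylesterase Ces2a was -0.14 and 1.65. Gstt1 was 0.024 and 1.16, and Gstm1 was 0.086 and 0.82. The fitted values of these 4 genes therefore carry the spread of array 2. Sult1e1, oestrogen sulfotransferase, was -0.024 and -0.13, and was 1.77 ± 0.18 higher in WT than in CAR-KO liver after PB. Aldh1a7 (0.026 and 0.077), Aldh1a1 (0.30 and -0.40), Cyp2a4 (0.40 and -0.23), Gstm2 (-0.11 and 0.57), Gadd45b (0.11 and 0.22, not well above background in the DEN RNA) and Sult1d1 (-0.10 and -0.73) complete the list with Tuba8.

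Nr1i3 itself, the targeted gene, was 0.067 on array 1 and 0.31 on array 2 with PB in CAR-KO liver. In WT over CAR-KO liver its ratio was 0.79 ± 0.16 (limma adjusted p = 0.412), which did not pass the test. The position of this probe relative to the deletion is not given in the sources used here, so it checks neither group. Tuba8, the alpha-tubulin that the series took forward, was 0.054 and -0.11 with PB, while WT exceeded CAR-KO by 1.41 ± 0.20 (adjusted p = 0.104), short of the threshold. In the DEN RNA its probe was well above background on 1 of 2 arrays. The other 10 tubulins measured ran from -0.045 to 0.68, the highest being Tuba4a with -0.28 and 1.63.

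Cyp3a11, the main steroid and drug hydroxylase of the Cyp3a family, was the named liver enzyme with the highest fitted ratio among those 1.5-fold higher on both arrays. It was 0.73 on array 1 and 2.11 on array 2, a fitted 1.42 ± 0.21, or 2.68-fold (unadjusted p = 0.000187, limma adjusted p = 1.0). With the dye effect of the other 4 arrays removed, array 1 gave 0.93 and array 2 gave 1.91. Over 19 alternative settings the value ran from 0.93 to 1.91. Cyp3a16 was 0.72 and 0.25, and Cyp3a41a was 0.98 on array 1 and -0.021 on array 2, both female-biased P450s. Cyp3a13 was 0.078 and -0.28. The Cyp3a genes are near-identical copies in part, and how these probes divide them is uncertain. Of the 14 PXR targets on the list, 9 were measured and 8 were positive, against 50.1% of all genes. Their median was 0.11, with medians of 0.12 and 0.10 on the 2 arrays. At least 1.5-fold higher on both was 1 gene, against 0.0951% of all genes. The glutathione transferase Gsta1 was 0.12 and 0.81. The transporters Abcc2 (0.12 and -0.057), Slco1a4 (0.058 and 0.15) and Abcb1a (-0.013 and 0.10) were near 0, the last of them not well above background in the DEN RNA. Cd36, a fatty acid carrier, was 0.46 and -0.33, with the DEN RNA well above background on 1 of 2 arrays.

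The windows around the start of Cyp3a11 and Cyp2b10 are shown because these are the reference targets of PXR and CAR and differed in their ratio. They are RefSeq promoters of build GRCm38.p6, from 250 bases before to 50 bases after the start of the gene, written 5′ to 3′ along the gene's strand. Cyp3a11 lies at chr5:145879805-145880104 on the minus strand, and Cyp2b10 at chr7:25897408-25897707 on the plus strand. Capitals mark the nuclear receptor half-site AGNTCA on either strand.
Cyp3a11: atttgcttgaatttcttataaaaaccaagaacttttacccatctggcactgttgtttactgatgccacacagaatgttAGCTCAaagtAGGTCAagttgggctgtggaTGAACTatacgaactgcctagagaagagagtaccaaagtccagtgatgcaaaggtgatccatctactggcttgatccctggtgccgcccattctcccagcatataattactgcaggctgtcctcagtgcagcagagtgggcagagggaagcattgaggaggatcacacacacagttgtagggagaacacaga
Cyp2b10: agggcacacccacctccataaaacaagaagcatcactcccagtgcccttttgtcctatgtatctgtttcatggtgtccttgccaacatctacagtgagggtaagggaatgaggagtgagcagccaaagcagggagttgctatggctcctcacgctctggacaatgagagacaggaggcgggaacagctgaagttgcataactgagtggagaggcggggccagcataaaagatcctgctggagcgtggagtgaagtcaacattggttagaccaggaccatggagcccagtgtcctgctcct
The Cyp3a11 window held 3 matches and the Cyp2b10 window 0. Of the 32851 promoters of the same length, 46.6% held at least 1 match, so the letters alone mark neither gene. A match is a description of the sequence, and a lack of matches says only that these letters are not in this window.

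Of the 7 targets of the dioxin receptor AHR on the list, 5 were measured. Cyp1a2, an abundant hepatocyte P450, was -0.32 on array 1 and 2.09 on array 2, opposite in sign. Ahrr was 0.01 and -0.03, and Aldh3a1 was 0.03 and 0.15. Cyp1a1 and Cyp1b1 were not well above background in the DEN RNA on either array. The NRF2 antioxidant genes had a median of 0.095 over 10 measured genes, with Nqo1, a quinone reductase, at 0.24 and -0.09. The phase II conjugation genes had a median of 0.089 over 16. Among them Sult1a1, a phenol sulfotransferase, was alike on both arrays, with 0.45 and 0.53 and a fitted 0.49 ± 0.15. Its WT over CAR-KO value was -0.031, near 0. Haem genes had a median of 0.097 over 10, with array 2 setting the highest, Alad (-0.27 and 2.35).

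Receptors of foreign compounds and lipids showed no shared direction on array 1. Over 23 measured receptors and partners the median was 0.015 on array 1 and 0.14 on array 2. The RXR partners were 0.01 and 0.19 for Rxra and 0.03 and 0.32 for Rxrg, and the bile acid receptor Nr1h4 was 0.13 and 0.24. Ppara was -0.016 on array 1 and 1.75 on array 2. The lowest was the coactivator Ppargc1a, with -0.097 and -0.97.

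Cyp4a14, a fatty acid omega-hydroxylase under the control of the fatty acid receptor PPARalpha, was higher with PB on both arrays. Its ratios were 1.15 and 0.70, a fitted 0.92 ± 0.17, or 1.89-fold (unadjusted p = 0.000815, limma adjusted p = 1.0), and ran from 0.73 to 1.12 over the alternatives. It was the 1 gene at least 1.5-fold higher on both arrays among the 16 measured genes of fatty acid oxidation. A probe without a symbol, described as Cyp4a10, a paralogue on the same list, was 0.49 and 1.35, a fitted 0.92 ± 0.17 (unadjusted p = 0.000689, limma adjusted p = 1.0). Ehhadh (0.22 and 0.15) and Acot1 (0.29 and 0.10) were slightly positive on both, Pdk4 was 0.31 and -0.04 and Fgf21 was -0.40 and 0.11. A probe described as Cyp4a-12, a male-type paralogue, was -0.13 and 1.21. The list's median was 0.13, with 10 of 16 positive and 4 positive on both arrays, against 50.1% and 20.3% of all genes. The ratio of WT to CAR-KO liver for Cyp4a14 was -1.16 ± 0.17 (adjusted p = 0.12). DEN-PB CAR-KO RNA is the numerator of the first ratio and the denominator of the second.

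Mt1, metallothionein 1, a small protein that binds zinc and copper and is induced by metals and glucocorticoids, was 0.79 and 0.96 with PB. Its fitted value was 0.87 ± 0.17, or 1.83-fold (unadjusted p = 0.00102, limma adjusted p = 1.0), and ran from 0.62 to 1.13 over the alternatives. The ratios of its relatives were less alike. A probe described as metallothionein-II was 1.04 and 0.37, another described as metallothionein 2A was -0.29 and 3.17, and the brain form Mt3 was -0.043 and 0.71. Metallothionein 1 and 2 are similar in sequence, so their probes may share signal. Against the DEN-PB CAR-KO liver, Mt1 was -0.40 in WT liver and -0.995 in WT tumour. The promoter window of Mt1 is shown for the metal response element, the sequence through which metals act on it. It lies at chr8:94178839-94179138 of GRCm38.p6 on the plus strand (RefSeq, as above), and capitals mark its core TGCNCNC on either strand.
Mt1: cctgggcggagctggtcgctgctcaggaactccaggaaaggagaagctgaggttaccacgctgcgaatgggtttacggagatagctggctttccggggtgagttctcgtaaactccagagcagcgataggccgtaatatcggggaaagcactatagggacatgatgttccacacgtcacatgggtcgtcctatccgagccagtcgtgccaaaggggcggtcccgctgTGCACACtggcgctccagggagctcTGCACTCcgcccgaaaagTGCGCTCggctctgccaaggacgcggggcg
The window held 3 matches, and 51% of the 32851 promoters held at least 1, so the short core is common.

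Cyp7b1 was the probe at least 1.5-fold lower on both arrays. The enzyme hydroxylates oxysterols in the alternative pathway of bile acid synthesis and is more abundant in male than in female mouse liver. It was -0.71 and -0.66, a fitted -0.69 ± 0.18 (unadjusted p = 0.00628, limma adjusted p = 1.0), and stayed between -0.87 and -0.42 over 19 alternative settings. Against the DEN-PB CAR-KO liver it was -0.91 in WT liver and -1.60 in WT tumour. Of the 14 measured genes of bile acid synthesis and transport, 7 were positive and 7 negative, 5 were negative on both arrays and 0 positive on both, against 17.0% and 20.3% of all genes. The uptake transporters Slco1a1 (-0.30 and -0.60) and Slco1b2 (-0.14 and -0.95) were among the 5. Cyp7a1, the rate-limiting enzyme of the classical pathway, was -0.023 and 0.18, and Cyp8b1 was -0.33 and 1.32.

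The male-biased liver genes were the list with the lowest median, -0.13 over 12 measured genes, and its medians were alike on both arrays, -0.13 and -0.14. Of the 12, 8 were negative, where 50.1% of all genes were positive. On both arrays 5 were negative, against 17.0% of all genes. Those 5 were Cyp7b1, Slco1a1, Elovl3 (-0.10 and -0.64), a fatty acid elongase, Nudt7 (-0.15 and -0.80) and Hsd3b5 (-0.31 and -0.01). The probe of the major urinary protein Mup1 was saturated and is given no ratio. Cyp2d9 (-0.34 and 1.99) and Selenbp2 (-0.11 and 1.43) were higher on array 2 only. None passed the test. The 12 female-biased genes had a median of 0.064, with 9 positive and 4 positive on both arrays, against 50.1% and 20.3% of all genes. Their lead members were the P450s Cyp3a16 and Cyp3a41a described above. In the growth hormone and IGF axis, which sets these sex differences, 14 genes had a median of 0.041. Of these, 10 were positive, against 50.1% of all genes, and 4 negative. The receptor Ghr (-0.16 and -0.75) and the feedback inhibitor Cish (-0.25 and -0.69) were negative on both arrays, and 1 gene, Jak2, was positive on both.

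Transcripts of skeletal muscle made up 10 of the 16 probes at least 1.5-fold higher on both arrays. Tnnc2, fast troponin C, the calcium sensor of the thin filament, was 1.98 on array 1 and 1.58 on array 2, a fitted 1.78 ± 0.15, or 3.43-fold. Myh2, a fast myosin heavy chain, was 1.18 and 1.003. Tnni2, fast troponin I, was 1.05 and 0.92, and Mylpf, the fast regulatory light chain, was 1.04 and 0.73. Myh7, the slow heavy chain, was 0.60 and 0.63, with the DEN RNA well above background on 1 of 2 arrays. Probes without a symbol were described as perinatal myosin heavy chain (2.33 and 1.52), myosin heavy chain IIB (1.71 and 0.95), heavy chain IIX (1.04 and 0.75), fast alkali light chain (1.20 and 0.66) and skeletal alpha actin (0.99 and 0.82). For the perinatal and IIX heavy chains and the alkali light chain, the DEN RNA was well above background on 1 of 2 arrays. Array 1 gave the larger value for 9 of these 10, Myh7 being the exception. None of them was a bright probe, with mean log2 intensities from 6.49 (Myh7) to 8.14 (Tnnc2). Among probes under 7, array 1 was no narrower than array 2 (SD 0.226 and 0.219). Tnnc2, Tnni2 and the perinatal and IIB heavy chains were brighter than that. Array 1 was narrower than array 2 among probes at 7 to 8 (SD 0.176 and 0.307) and at 8 to 9 (0.152 and 0.441). Once the dye effect of the other 4 arrays was removed, array 1 was larger only for Tnnc2 (1.84 and 1.72) and the perinatal chain (1.97 and 1.89).

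The muscle list as a whole was mixed. Of its 30 genes 21 were measured, and 16 had positive fitted values, against 50.1% of all genes. On both arrays 9 were positive, against 20.3%, and 4 were at least 1.5-fold higher, against 0.0951%. Its median was 0.095, with 0.21 on array 1 and 0.16 on array 2. Tpm1 (0.62 and 0.56), a tropomyosin that smooth muscle and other cells also make, Tnnt3 (0.55 and 0.26) and Eno3 (0.38 and 0.26) followed the 4. Muscle creatine kinase Ckm (0.25 and -0.065), myoglobin Mb (0.07 and -0.13) and the calcium pump Atp2a1 (0.29 and -0.14) were near 0, as was the slow troponin C Tnnc1 (-0.08 and 0.16), and Actn3 was -0.15 and -0.19. In the DEN RNA 2 of the 21, Pgam2 and Casq1, were not well above background on either array. The summed normalized intensity of the list, without the liver-expressed Car3, was 3910 in DEN-PB and 2866 in DEN on array 1, and 3706 and 3128 on array 2. A second, dimmer probe of Mylpf was -0.093 and -0.22, and a second probe of Myh2 (0.28 and 0.16) was not well above background in the DEN RNA. The labels give only liver as the tissue, and the part of other tissue in these ratios was not tested. In bulk RNA a different number of cells of a type and a different amount of RNA per cell cannot be told apart.

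Of 11 measured pancreatic acinar genes, 7 had positive ratios on both arrays, against 20.3% of all genes, and 1, Cela2a, was at least 1.5-fold higher on both, against 0.0951%. Cela2a, a pancreatic elastase, was 0.65 and 0.85, a fitted 0.75 ± 0.21. The trypsinogen Prss2 was 0.34 and 0.53, and the elastase Cela3b was 0.48 and 0.38. Of the 11, 10 had a positive fitted value, against 50.1% of all genes, with a median of 0.22 and array medians of 0.15 and 0.39. Colipase Clps was 0.15 and 0.39, the ribonuclease Rnase1 was 0.19 and 0.17, and the lipase Pnlip was 0.28 and -0.022. The summed normalized intensity was 3065 in DEN-PB and 2802 in DEN on array 1, and 3632 and 2838 on array 2. None passed the test, and the part of other tissue in these values was not tested.

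The named muscle and pancreas genes at least 1.5-fold higher on both arrays, Cyp4a14 and Mt1 had the opposite sign in WT over CAR-KO liver. Tnnc2 was -1.78, Myh2 was -1.25, Tnni2 was -0.66, Mylpf was -0.87, Myh7 was -0.31 and Cela2a was -0.68. The sum of both ratios gives WT liver after DEN and PB over CAR-KO liver after DEN, and was added after these values had been seen. DEN-PB CAR-KO RNA drops out of that sum if both pairs held the same RNA, which the labels do not say. The sum was -0.0065 ± 0.22 for Tnnc2, 0.016 ± 0.21 for Mylpf, -0.16 ± 0.30 for Myh2, 0.071 ± 0.30 for Cela2a and -0.24 ± 0.24 for Cyp4a14. It was 0.47 ± 0.24 for Mt1, 0.33 ± 0.26 for Tnni2 and 0.30 ± 0.26 for Myh7. Opposite signs bring such a sum toward 0, so these values restate the ratios. Cyp3a11 had the same sign in each, with 0.53 in WT over CAR-KO liver and a sum of 1.95 ± 0.30 (limma adjusted p = 0.228). Cyp7b1 was negative in each, with a sum of -1.59 ± 0.26 (adjusted p = 0.332). The probe similar to glutathione S-transferase theta 1 was 1.36 in WT over CAR-KO liver, with a sum of 2.04 ± 0.23 (adjusted p = 0.0487). In that summed contrast 13 probes were higher (0.0627%) and 0 lower (0%), and Por (2.18 ± 0.24) was among the 13 with the same adjusted p.

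**Figure D4:**
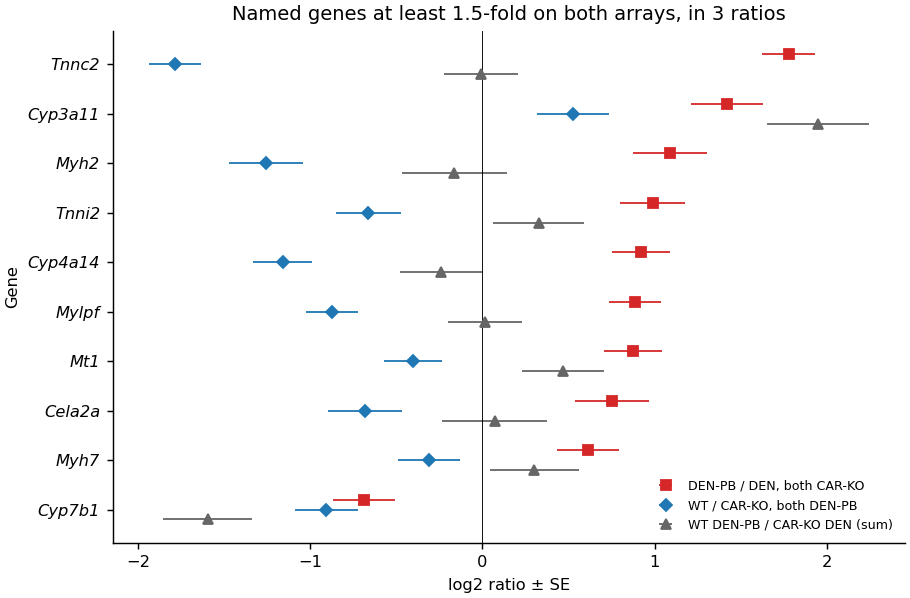
Log2 ratios ± SE (horizontal axis) of the 10 named genes at least 1.5-fold on both arrays (vertical axis). Red squares are DEN-PB over DEN in CAR-KO liver, blue diamonds WT over CAR-KO liver after DEN and PB, and grey triangles their sum, WT DEN-PB over CAR-KO DEN. Tnnc2 is 1.78 and -1.78 in the first 2 and near 0 in the sum, while Cyp3a11 is above 0 in all 3.

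Abundant hepatocyte transcripts had high ratios on array 2 that array 1 did not show. Apolipoprotein Apoa1 was -0.40 on array 1 and 2.79 on array 2, and transferrin Trf was -0.38 and 2.81. The growth factor binding protein Igfbp2 was -0.081 and 3.42. In the urea cycle, Asl was -0.091 and 2.55, Arg1 was 0.0079 and 2.21, and Ass1 was -0.21 and 2.36. As a result the urea cycle and periportal list had the highest median of the 37 lists, 0.32 over 10 genes, made of -0.087 on array 1 and 0.72 on array 2. The hepatocyte markers gave -0.18 and 0.50, the acute phase genes -0.12 and 0.47, cholesterol synthesis -0.16 and 0.35, and gluconeogenesis and amino acid breakdown 0.026 and 0.51. The smooth muscle genes Tagln (-0.31 and 3.40) and Acta2 (-0.13 and 1.10), on the stellate cell list, were of the same kind. In none of these lists did a member pass the test. With the dye effect of the other 4 arrays removed, the median of the urea cycle list on array 1 was 0.090.

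**Figure D5:**
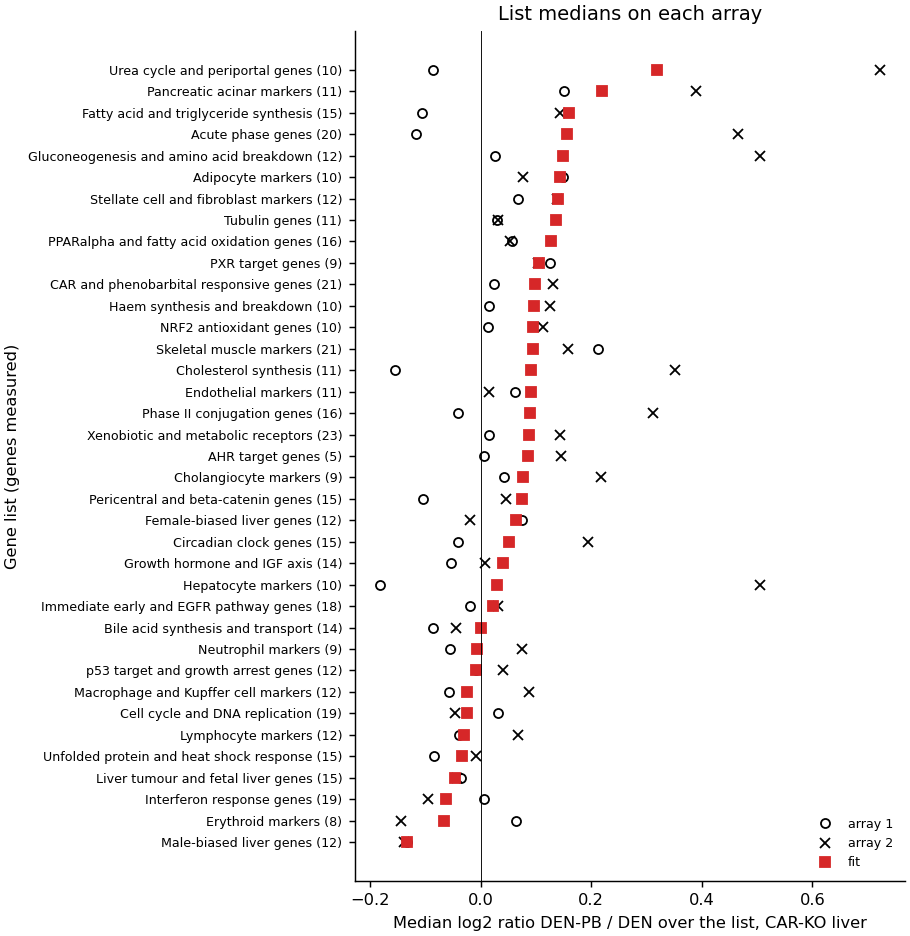
Median log2 ratio of DEN-PB over DEN in CAR-KO liver (horizontal axis) for each gene list (vertical axis, with the number of genes measured), on array 1 (circles), on array 2 (crosses) and in the fit (squares). The urea cycle list has the widest gap between arrays among those named in the text, -0.087 against 0.72, and the male-biased list lies at -0.13 and -0.14.

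Pericentral genes and targets of beta-catenin, the pathway active in many PB-promoted liver tumours, had no shared direction. Over 15 measured genes the median was -0.10 on array 1 and 0.046 on array 2. Glutamine synthetase Glul was -0.02 and 1.26, Cyp2e1 was -0.13 and 1.61, Axin2 was 0.23 and -0.08 and Lgr5 was -0.01 and -0.46. Fatty acid synthesis gave -0.11 and 0.14, with Scd1 at -0.23 and 0.68.

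Lists of growth genes had medians near 0. Over 19 measured genes of the cell cycle the fitted values ran from -0.17 to 0.22, with a median of -0.024. On both arrays 2 were positive and 1 negative, against 20.3% and 17.0% of all genes. Cyclin D1 (Ccnd1) was -0.038 and 0.48, with the DEN RNA well above background on 1 of 2 arrays, and Pcna was 0.27 and -0.39. The liver tumour and fetal liver genes had a median of -0.047 over 15, with Afp at 0.11 and -0.04, H19 at -0.11 and -0.15, and Igfbp1 at 0.76 and -0.05. The p53 targets had a median of -0.0088 over 12. Gadd45g was -1.33 on array 1 and 0.065 on array 2, and Trp53inp1 was -0.23 and -0.59. The immediate early genes of EGFR signalling, a pathway on which PB is known to act upstream of CAR, had a median of 0.023 over 18, with Egfr at 0.13 and 0.29, Fos at -0.20 and 0.42 (DEN RNA well above background on 1 of 2 arrays) and Myc at -0.10 and -0.33. The unfolded protein and heat shock list had a median of -0.033 over 15.

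The lists of interferon response genes and immune cell markers had medians near 0, and none of their members passed the test. The acute phase list, whose array medians are given above, had a fitted median of 0.16 over 20 genes. The interferon list ran from -0.31 to 0.17 with a median of -0.063 over 19, and the macrophage list from -0.17 to 0.29 with a median of -0.024 over 12. Lymphocyte (-0.030 over 12), neutrophil (-0.0063 over 9) and erythroid (-0.066 over 8) markers had medians near that of all genes, while cholangiocyte (0.076 over 9) and endothelial (0.091 over 11) markers lay slightly above it. In the adipocyte list, with a median of 0.14 over 10, Cidea, a lipid droplet protein, was not well above background in the DEN RNA on either array and was above it in the DEN-PB RNA on both. Its ratios were 1.25 and 0.54. That pattern of detection was not particular to Cidea, and was shared by Cux2 (0.012 and 0.031) and Cyp1a1 (-0.16 and -0.031). The channel holding the DEN RNA had the smaller share of probes well above background on both arrays. It was 91.5% against 92.4% on array 1, and 84.4% against 94.6% on array 2. The fitted ratio of Cidea was 1.86-fold higher with PB (limma adjusted p = 1.0), with a 95% interval from 0.53 to 1.26 on the log2 scale. For the DEN RNA on each array, the dimmest measurable signal or the probe's own, whichever was higher, was also taken. The probe's own signal set the result, so it equals the fitted fold and gives no minimum. The other markers were less uniform, with Fabp4 at 0.73 and -0.21 and Adipoq at -0.10 and 0.03. The circadian clock genes, which vary with the hour of sampling, had a median of 0.051 over 15, with Dbp at 0.01 and 0.44 and Per2 at -0.18 and -0.51.

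Further genes named by the rule were ranked by the smaller of their 2 array ratios. Higher on both arrays were the apolipoprotein Apom, with 0.42 and 0.63, and Cables1, with 0.39 and 0.52. Lower on both were the succinate receptor Sucnr1 (-0.47 and -0.87), the lysosomal nuclease Dnase2a (-0.36 and -0.83) and Cox5a (-0.37 and -0.48), a subunit of cytochrome c oxidase. The hepatocyte transcription factor Foxa2 was -0.38 and -0.35. Cts6 (-0.48 and -0.42), Asic5 (-0.37 and -0.40), Rp9 (-0.33 and -0.31), Ufsp2 (-0.29 and -0.42) and Trp63 (-0.31 and -0.29) were also among the 12 lowest. Their SE values, from 0.15 to 0.23, were a large part of these ratios, and none passed the test.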

How the data were processed

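Total liver RNA was labelled as Cy3 or Cy5 cRNA and hybridised to 6 Agilent arrays in 3 dye-swapped pairs. The deposited scanner files hold mean signals and median local backgrounds as intensity values, without normalization by the authors. The deposited log10 ratio column and value table, made with Feature Extraction per the file headers (7.1.1 on 5 arrays, 7.5.1 on 1, and 7.5 per the submitters' processing notes), were identical and were used only as a check. Other deposited columns include spot flags and the signals processed by the Agilent software, which were used in 1 alternative setting.

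Of 22393 spots, 1075 controls were left out after normexp background correction (offset 50), which was followed by loess within arrays. Outlier spots were set to missing and spots of a probe averaged. Probes well above background in at least 1 channel on at least 2 arrays were fitted with limma 3.58.1 (R 4.3.3), with 3 comparisons and a dye effect, on 6 arrays (2 residual and 5.48 prior degrees of freedom). p-values are 2-sided and adjusted over all probes. The number of arrays limits the precision. Symbols came from RefSeq (8947 probes by accession, 359 by symbol, 341 by older symbol). In simulated data for this comparison, over 20744 probes, 90 of 100 probes changed by a log2 of 1 and 100 of 100 changed by 2 were called, with 25 false calls. In the measured data Tnnc2, with a fitted 1.78, did not pass (limma adjusted p = 0.0937). The simulated shares may therefore not hold for the measured arrays, and 0 calls there do not exclude 2-fold differences.

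The experiment and the 37 lists were chosen with earlier results of these data known. Named genes are the 12 highest and 12 lowest by the smaller ratio of both arrays (same sign, well above background, unsaturated), Nr1i3, Tuba8, the CAR, PXR and AHR lists, the extremes of each other list and the 5 smallest p-values. Other list members, probes without a symbol, further metallothionein, Cyp4a and second probes were named after their values were seen. Some genes that the rule names are not reported here.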

Additional observations from a re-analysis of the deposited data

How the results depend on the processing

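Alternatives changed the background correction, normalization, filter, dye term, weights or arrays fitted. Of 118 named genes, 46 changed the sign of their fitted value in at least 1 alternative, and the medians of 24 of 37 lists had both signs. Tnnc2 passed the test in 5 of 19 settings, and Myh2, Tnni2 and Cyp3a11 in 3 each. These settings are not independent. Leaving out the tumour pair or either of its arrays gave identical counts, so the 3 passes of Myh2, Tnni2 and Cyp3a11 amount to 1 fit. For PB, leaving out the WT pair or either of its arrays also gave identical counts, and normalizing intensities between arrays left the counts of the main fit unchanged. The count of probes lower with PB was 0 throughout. The count of probes higher with PB was 0, but 1 with array weights and 1 with only probes well above background on all 6 arrays, 6 without the tumour pair, and 0 to 6 when single arrays were left out. The count at an unadjusted p under 0.05, 565, became 1764 with median centring, 974 with array weights, 192 without a dye term, 53 with only the 2 arrays of the pair, 1374 without the tumour pair, and 27 to 1374 without single arrays. Probes at least 1.5-fold higher on both arrays, 16, became 9 without background correction, 237 with the processed signals, 121 with median centring and 47 with an offset of 10. Those lower, 1, became 0 with background subtraction, 2 without correction, 88 with the processed signals, 0 with median centring and 2 with an offset of 10. Removing the dye effect of the other 4 arrays, chosen after seeing the data, gave 17 and 4, and array 1 alone after that removal, with 1 array to pass in place of 2, gave 218 and 74. Probes whose WT over CAR-KO ratio exceeded the PB ratio (6), and those below it (2), became 2 and 1 with background subtraction, 10 and 7 without correction, 0 and 0 with the processed signals and with an offset of 10, 21 and 16 with array weights, and 42 and 26 without the tumour pair. Those below it became 10 with median centring, 1 with the stricter filter and 1 without a dye term. Without single arrays they ran from 0 to 42 and from 0 to 26. The cause of these shifts was not tested. No paired analysis was possible because each ratio already compares both groups within an array, and the replicate numbers in different pairs link no samples.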
